A study of Mus musculus with 12 samples.

Results

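The lungs of mice given lipopolysaccharide (LPS) were compared with the lungs of untreated control mice. The members were the 3 libraries titled LPS and the 3 titled control, 6 of the 12 libraries sequenced, with 1 library per mouse. All were male BALB/c mice of 6 to 8 weeks and about 20 g with no named allele. The LPS mice received 50 µL at 1 µg/µL. The control mice received neither LPS nor bovine lactoferrin, and a vehicle is not named. Polyadenylated RNA of whole lung tissue was sequenced after 14 days of the model. The route, the day or days of LPS and the hour of collection are not given in the sources used here, so the values cannot be tied to a time after LPS. The other 6 libraries came from mice given LPS with lactoferrin (LPS+bLF) or lactoferrin alone (bLF, 200 mg/kg per day). They entered the fit for its estimate of spread and are described only at the end.

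LPS is a glycolipid that coats Gram-negative bacteria. LBP and CD14 hand it to TLR4 and its partner MD-2, the product of Ly96, and signalling through NF-kB and interferon regulatory factors then drives cytokines, chemokines and interferon-stimulated genes in alveolar macrophages, epithelium and endothelium. Neutrophils enter early, monocytes follow and become macrophages, and feedback inhibitors, enzymes that take LPS apart and repair of the matrix close the response. In whole lung RNA, fewer cells of a type and less RNA per cell cannot be told apart, so every level below mixes the 2.

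Total counts of the 12 libraries ranged from 16714327 to 17820645, and 3 counts, the limit for a gene at 0, stood for 0.1683 to 0.1795 CPM (counting error only). Of 17920 genes listed, 13735 reached 0.5 FPKM in at least 3 of the 12 libraries and were tested. Genes that define lung were high in all 6 libraries, including the surfactant gene Sftpc and the type 1 cell receptor gene Ager. LPS replicate 1 stood apart: 3067 genes were listed at 0, where the other 11 libraries had 1499 to 1963, its median correlation with the other libraries was 0.92, where the others had 0.948 to 0.983, and its sample quality weight was 0.0853, where LPS replicates 2 and 3 had 3.59 and 1.03. Control replicate 1 carried RNA of fat and heart, with Ucp1 of brown fat at 88.1 FPKM. Some lactoferrin libraries, which share the estimate of spread, carried such RNA too. Fat genes (18 tested) summed to 15640 FPKM in control replicate 1, 29595 in LPS+bLF replicate 2 and 8440 in bLF replicate 1. Heart genes (18 tested) summed to 1286, 5255 and 6167 FPKM in the same libraries. Skeletal muscle genes (11 tested) summed to 7473 FPKM in LPS+bLF replicate 3. Control replicate 2 had 23.8% of its counts in Scgb1a1, the secretoglobin of club cells, where the other 11 libraries had 1.68 to 7.43%. Where 3 values are given for a group they are those of replicates 1, 2 and 3, in FPKM as deposited, a level per gene length and library depth by its name. Log2 fold changes are from the edgeR fit and are LPS minus control, with their SE (n = 3 each).

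The comparison asked which lung genes LPS alone set apart from untreated lung. Genes of macrophages, of phagocytosis and of leukocyte signalling led the genes that were higher in the LPS lungs. Of the genes that were lower, the smooth muscle myosin gene Myh11 had the smallest p at a mean of at least 1 FPKM. The contractile genes Cnn1 and Lmod1 were also among the 12 leading lower genes, and the others were of mixed kinds. The smooth muscle list had a median log2 fold change of −0.47, and −0.22 without control replicate 1, which had the most fat and heart RNA of the 6 libraries. No gene passed adjustment: edgeR's quasi-likelihood test with Benjamini-Hochberg adjustment called 0 of 13735 genes (0% called at an adjusted p under 0.05), with a smallest adjusted p of 0.084. Before adjustment 980 genes had a p under 0.05 (7.14%), of which 758 were higher with LPS (5.52% of all genes tested) and 222 lower (1.62%). Other tools called more of the same data. DESeq2 called 138 genes (1.00%), 129 higher and 9 lower, limma-voom with sample quality weights called 168 (1.22%), 145 higher and 23 lower, and limma on log2(FPKM + 1) called 2 (0.0146%). Both DESeq2 and limma-voom called 96 genes. edgeR without LPS replicate 1 called 25 genes (0.182%), all higher, of which 18 were also at an unadjusted p under 0.05 with all libraries.

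In levels, all 3 LPS libraries lay above all 3 control libraries for 550 genes (4.00%) and below them for 539 (3.92%). On TMM-scaled CPM these counts were 669 (4.87%) and 630 (4.59%). Overlap is judged below in FPKM. On TMM-scaled CPM the groups overlapped for Cd14, Cd40, Cd6, Clec4d, Cxcl10, Ftl1, Il2rb, Lcn2, Pglyrp1, Ramp2, Sgk1 and Wee1, which separate in FPKM, and separated for Bst2, H2-Q4 and Oas1a, which do not. The fitted mean was higher with LPS for 45.8% of the genes tested, and the median log2 fold change over all genes was −0.04. Of the 758 genes higher at an unadjusted p under 0.05, 726 kept their direction without LPS replicate 1 and 337 also kept an unadjusted p under 0.05, while their median log2 fold change was 1.00 with it and 0.50 without it. Of the 222 lower genes, 222 kept their direction and 78 their unadjusted p, with medians of −0.65 and −0.44.

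**Figure D1:**
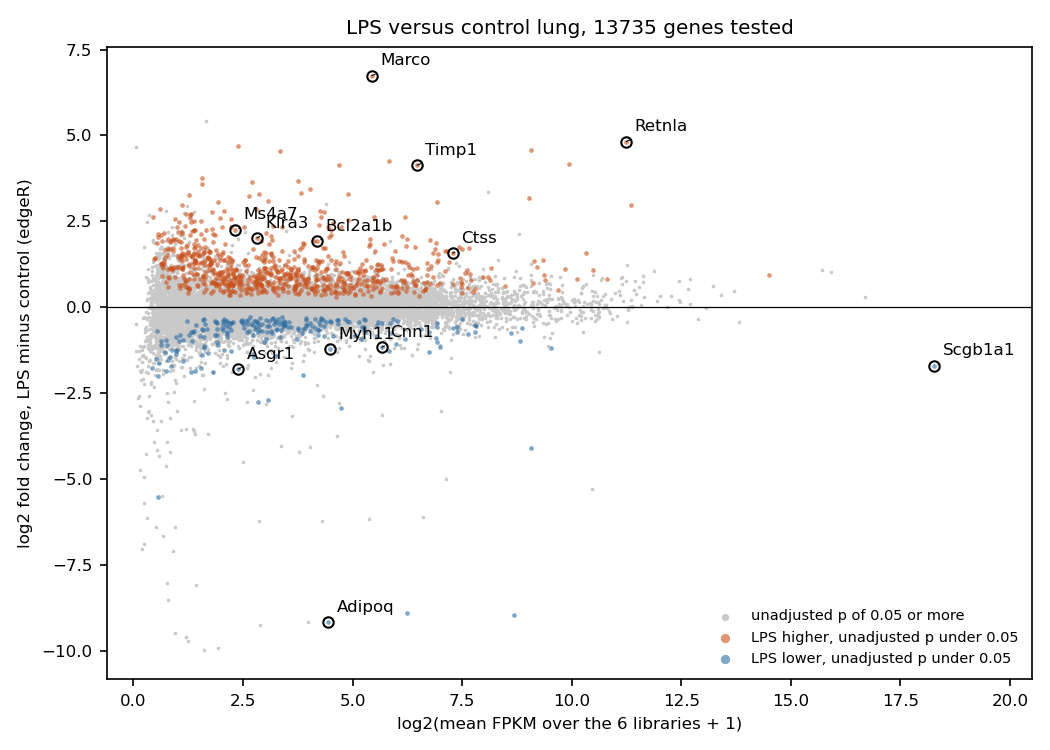
Log2 fold change (LPS minus control, edgeR) of the 13735 genes tested against their level, log2 of the mean FPKM over the 6 libraries plus 1. Orange points are the 758 genes higher and blue points the 222 genes lower with LPS at an unadjusted p under 0.05; for Marco and Retnla, the labelled points furthest up, LPS replicate 1 was the only LPS library above all control libraries.

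The gene with the smallest p was Ms4a7, a member of the MS4A membrane family found on macrophages in tissue (ID 109225, chromosome 19, 11321039 to 11336146, GRCm38). It was at 5.31, 6.6 and 7.61 FPKM in the LPS lungs, against 1.14, 1.33 and 1.77 FPKM in the control lungs. All LPS lungs were above all control lungs with a wide gap, and LPS replicate 1 did not stand apart. The means were 6.51 ± 1.15 FPKM with LPS and 1.41 ± 0.323 FPKM in control (SD, n = 3 each), and the log2 fold change was 2.25 ± 0.30, with edgeR's quasi-likelihood test giving a Benjamini-Hochberg adjusted p of 0.084. Without LPS replicate 1 the log2 fold change was 2.28 and edgeR's adjusted p 0.0238.

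Leukocyte cytoskeleton and signalling genes followed. Myo1f, a class I myosin of leukocytes, was at 10.1, 12.4 and 14.8 FPKM in the LPS lungs, against 5.99, 5.15 and 7.59 FPKM in the control lungs (log2 fold change 1.04 ± 0.15). Nckap1l, the haematopoietic subunit of the WAVE complex that drives actin branching, was at 8.17, 9.29 and 9.42 FPKM with LPS and 4.96, 4.06 and 5.56 FPKM in control (0.94 ± 0.15). Pik3r5, the p101 regulatory subunit of PI3 kinase gamma, which acts below chemokine receptors, was at 11.3, 9.07 and 8.92 FPKM in the LPS lungs, against 4.49, 3.09 and 4.32 FPKM in the control lungs (1.39 ± 0.20). In each of these genes the groups did not overlap and the values within a group stayed close together.

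Ctss, the lysosomal protease cathepsin S that cuts the invariant chain of MHC class II, was at 194, 204 and 285 FPKM in the LPS lungs, against 97.2, 48.9 and 98.6 FPKM in the control lungs (1.57 ± 0.24). Control replicate 2 was the lowest library, and all LPS lungs were above all control lungs. Siglece, an inhibitory receptor for sialic acid on myeloid cells, was at 13.03, 14.8 and 15.2 FPKM with LPS and 8.95, 4.25 and 6.99 FPKM in control (1.16 ± 0.19), and Fcgr2b, the inhibitory Fc gamma receptor, was at 14.4, 18.4 and 22.2 FPKM with LPS and 5.84, 5.38 and 8.84 FPKM in control (1.498 ± 0.25). Both were thus inhibitory receptors at a higher level in every LPS lung.

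Klra3, an NK cell receptor of the Ly49 family, was at 9.45, 11.7 and 7.69 FPKM in the LPS lungs, against 2.75, 1.89 and 2.81 FPKM in the control lungs (2.02 ± 0.30), and H2-Bl, an MHC class I gene of the class Ib region, was at 35.9, 21.3 and 28.9 FPKM in the LPS lungs, against 10.2, 6.87 and 11.4 FPKM in the control lungs (1.71 ± 0.27). Both belong to families of near-identical genes whose reads the counting could split, so their levels are uncertain. Klra3 was as high in LPS replicate 1 as in the other LPS libraries, unlike the other NK cell genes described below. The 12 genes with the smallest p among the higher genes, 1 of them without a formal name, had edgeR adjusted p values of 0.084 to 0.0957. DESeq2 and limma-voom with quality weights each called all 12, and 8 were called by edgeR without LPS replicate 1. Because the 12 were picked by their p in these same libraries, the other calls are no independent support.

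**Figure D2:**
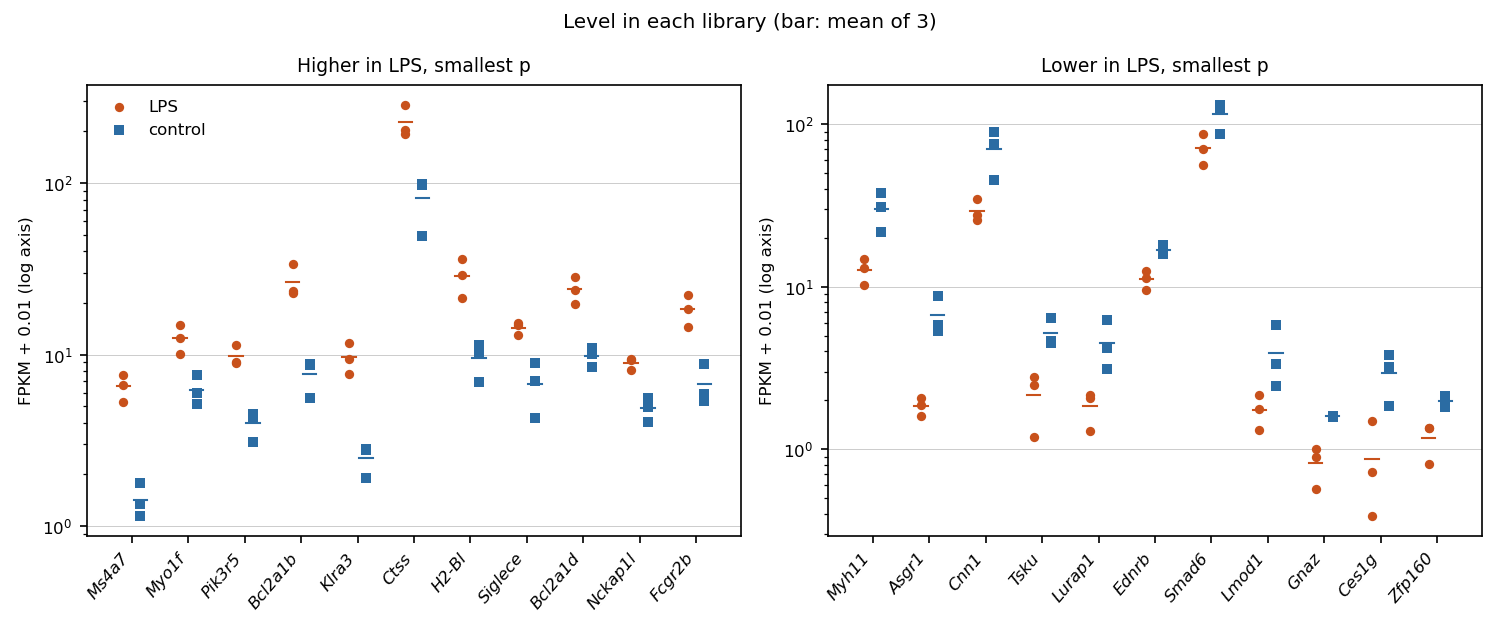
FPKM plus 0.01 (log axis) in each of the 3 LPS libraries (circles) and 3 control libraries (squares) for the genes with the smallest p at a mean of at least 1 FPKM, higher on the left and lower on the right; short bars are means of 3. In all 22 genes drawn the groups do not overlap.

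Bcl2a1b and Bcl2a1d, copies of the gene for the survival protein A1, were also among these 12, and the third copy in the files, Bcl2a1a, was close behind. A1 holds back mitochondrial cell death in blood cells and is a textbook NF-kB target. Bcl2a1b was at 33.7, 23.3 and 22.7 FPKM in the LPS lungs, against 8.84, 5.56 and 8.67 FPKM in the control lungs (1.92 ± 0.28). Bcl2a1d was at 23.7, 19.7 and 28.5 FPKM with LPS and 10.9, 8.4 and 10.1 FPKM in control (1.38 ± 0.22), and Bcl2a1a was at 21.3, 16.5 and 20.4 FPKM with LPS and 10.2, 6.59 and 8.35 FPKM in control (1.32 ± 0.25). All 3 separated the groups, with every LPS lung above every control lung. The copies share most of their sequence, so reads could be split among them and the 3 values are not independent. Of the 17 tested genes of the Bcl2 family and survival list, 12 were higher (45.8% of all genes). Of these, 5 were at an unadjusted p under 0.05 (5.52% of all genes) and 4 without overlap (4.00%). The median log2 fold change was 0.20 (−0.04 over all genes). Mcl1, a broader survival gene of the family, was at 91.9, 100.85 and 100.98 FPKM with LPS, against 82.7, 75.3 and 87.2 FPKM in control (0.32 ± 0.14). The difference was thus larger in the A1 copies than in Mcl1, and the median over the family stayed near that of all genes.

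The 250 bases before a RefSeq start are shown for the 3 A1 copies, because all 3 were higher, and for Ms4a7, the gene with the smallest p. A gene can have further starts. Sequences are from RefSeq, GRCm38.p6, read 5′ to 3′ on the gene's strand. Capitals mark GAGGAAG, the purine box known from targets of the myeloid factor PU.1, or its reverse complement CTTCCTC.
Bcl2a1a: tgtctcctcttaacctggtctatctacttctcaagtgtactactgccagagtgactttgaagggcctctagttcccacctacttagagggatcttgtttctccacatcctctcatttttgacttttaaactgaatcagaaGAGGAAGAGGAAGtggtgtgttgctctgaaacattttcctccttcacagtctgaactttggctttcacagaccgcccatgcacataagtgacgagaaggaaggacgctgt
Bcl2a1b: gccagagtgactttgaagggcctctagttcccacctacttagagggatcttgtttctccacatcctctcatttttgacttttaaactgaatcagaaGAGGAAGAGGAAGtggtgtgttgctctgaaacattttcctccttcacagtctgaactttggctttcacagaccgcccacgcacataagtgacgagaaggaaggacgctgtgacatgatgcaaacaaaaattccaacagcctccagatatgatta
Bcl2a1d: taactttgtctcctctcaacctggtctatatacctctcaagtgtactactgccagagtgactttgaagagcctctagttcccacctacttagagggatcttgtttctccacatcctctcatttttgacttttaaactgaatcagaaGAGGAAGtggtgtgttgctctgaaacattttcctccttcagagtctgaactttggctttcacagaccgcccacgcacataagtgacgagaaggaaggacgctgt
Ms4a7: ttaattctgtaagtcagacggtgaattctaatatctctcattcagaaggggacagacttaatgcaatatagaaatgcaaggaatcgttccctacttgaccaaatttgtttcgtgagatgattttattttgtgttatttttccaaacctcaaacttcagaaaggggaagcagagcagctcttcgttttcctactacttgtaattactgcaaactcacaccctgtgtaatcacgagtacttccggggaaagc

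The windows are chr9:88956670-88956919, plus strand for Bcl2a1a, chr9:89199023-89199272, plus strand for Bcl2a1b, chr9:88731851-88732100, minus strand for Bcl2a1d and chr19:11336147-11336396, minus strand for Ms4a7. Aligned with free ends, the windows of Bcl2a1a and Bcl2a1d had 238 identical bases and 6 mismatches, and those of Bcl2a1a and Bcl2a1b had 205 identical bases and 1 mismatch. Bcl2a1a and Bcl2a1b hold a pair of overlapping matches where Bcl2a1d has 1. Ms4a7 has none in this window. Of the 12 leading higher genes, 10 had a window, and 3 held the 7-base motif on either strand in any window of the gene. These 3 were Bcl2a1b, Bcl2a1d and Siglece. The windows of the copies Bcl2a1b and Bcl2a1d had 198 identical bases and 2 mismatches, so their matches are not independent. Of the 12 leading lower genes, 9 had a window and 0 held the motif. The motif stood in 12% of all 27025 genes with a window, in 13.2% of the 10930 tested genes with one, in 17.9% of the 593 higher and in 13% of the 177 lower genes at an unadjusted p under 0.05. A match is a description of letters and not a site, and these shares carry no test.

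Markers of monocytes and interstitial macrophages were higher throughout. All 30 tested members had a higher fitted mean in the LPS lungs, where 45.8% of all genes did. Of these, 21 were at an unadjusted p under 0.05 and 16 had no overlap between the groups, 0 in the other direction, and the median log2 fold change was 1.11. Over all genes tested, 5.52% were higher at that p and 4.00% higher without overlap, and 1.62% and 3.92% were lower. Counts of every list below stand beside these shares. The mean over the members of log2(FPKM + 1), less the control mean, was 0.64, 0.84 and 1.02 in the LPS libraries and 0.01, −0.21 and 0.20 in the control libraries, so the list separated the groups. Over all genes tested this mean was −0.25, 0.06 and 0.00 in the LPS libraries and 0.09, −0.12 and 0.03 in control. Adgre1, the F4/80 receptor of mouse macrophages, was at 3.23, 3.8 and 5.12 FPKM in the LPS lungs, against 0.86, 1.21 and 1.78 FPKM in the control lungs (1.68 ± 0.30). Trem2, a lipid receptor of macrophages that signals through an ITAM adaptor, was at 54.8, 22.7 and 28.2 FPKM in the LPS lungs, against 10.2, 6.35 and 8.22 FPKM in the control lungs (2.25 ± 0.44), highest in LPS replicate 1. Without LPS replicate 1 the list median was 0.95.

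Alveolar macrophage markers, 24 tested, were mixed. Of these, 16 were higher, 9 at an unadjusted p under 0.05 and 5 without overlap, and the median was 0.44 (0.15 without LPS replicate 3). Ctsk, the collagen-degrading cathepsin K, was at 46.2, 20.8 and 32.98 FPKM in the LPS lungs, against 8.32, 9.86 and 7.79 FPKM in the control lungs (2.05 ± 0.34), and Chil3, the chitinase-like protein Ym1, was at 177, 94.7 and 116 FPKM in the LPS lungs, against 36.7, 42.6 and 44.1 FPKM in the control lungs (1.75 ± 0.43). Both separated the groups and were highest in LPS replicate 1. Olr1, the receptor for oxidized lipoprotein, was at 1.45, 1.44 and 1.74 FPKM with LPS and 0.99, 0.58 and 0.67 FPKM in control (1.13 ± 0.28), and Atp6v0d2, a subunit of the proton pump of lysosomes, was at 12.4, 8.89 and 12.7 FPKM with LPS and 4.86, 4.36 and 7.02 FPKM in control (1.15 ± 0.29). Marco, a scavenger receptor that binds bacteria, was at 249 FPKM in LPS replicate 1 and between 0.24 and 1.80 FPKM in the other 5 libraries. The list holds Fabp4 and Cidec, which are also fat genes, and its summed level was 9208 FPKM in control replicate 1, where fat genes were high, against 837 to 1282 in the other 5 libraries.

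Fc receptors and ITAM signalling genes, which turn bound antibody or pathogen sugars into phagocytosis, were nearly all higher. Of 30 tested, 29 were higher (45.8% of all genes), 17 at an unadjusted p under 0.05 (5.52%) and 11 without overlap (4.00%). The median was 0.80. Clec4n, the fungal sugar receptor dectin-2, was at 29.6, 13.7 and 19.2 FPKM in the LPS lungs, against 5.76, 5.88 and 6.94 FPKM in the control lungs (1.86 ± 0.32), and Syk, the kinase that these receptors recruit, was at 15.7, 14.6 and 15.6 FPKM in the LPS lungs, against 8.02, 6.6 and 10.3 FPKM in the control lungs (0.96 ± 0.19). Each LPS lung was above each control lung in both genes. The list median was 0.73 without LPS replicate 1. The list shares 5 genes with the macrophage list, so these counts overlap.

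Most genes listed with the phagocyte NADPH oxidase, which makes superoxide in phagosomes, were higher. Of 10 list members 9 were higher (45.8% of all genes), 6 at an unadjusted p under 0.05 (5.52%) and 6 without overlap (4.00%). The median was 0.79. Cybb, the catalytic subunit gp91phox, was at 5.46, 10.2 and 13.5 FPKM in the LPS lungs, against 4.34, 3.58 and 4.06 FPKM in the control lungs (1.30 ± 0.23), and without LPS replicate 1, its lowest LPS library, edgeR gave it 1.52 with an adjusted p of 0.0146. Among the cytosolic organizers, Ncf1 (p47phox) was at 32.8, 22.8 and 24.9 FPKM with LPS and 14.3, 10.5 and 15.1 FPKM in control (1.11 ± 0.22) and Ncf4 (p40phox) was at 23.3, 21.5 and 28.1 FPKM with LPS and 12.3, 14.3 and 15.3 FPKM in control (0.84 ± 0.19). Cyb561a3 is counted in the list but is a lysosomal reductase of the cytochrome b561 family and not a subunit of the oxidase. It was at 36.1, 31.2 and 30.8 FPKM with LPS and 19.8, 15.6 and 23.9 FPKM in control (0.74 ± 0.17). These 4 genes separated the groups. Nos2, the inducible nitric oxide synthase of activated macrophages, was at 0.22, 1.88 and 2.12 FPKM with LPS, against 1.83, 1.25 and 1.49 FPKM in control (−0.13 ± 0.54, 0.35 without LPS replicate 1), with overlapping groups and LPS replicate 1 lowest.

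Cathepsins and other lysosome genes were higher by less. Of 34 tested, 30 were higher (45.8% of all genes), 15 at an unadjusted p under 0.05 (5.52%) and 9 without overlap (4.00%). The median was 0.38. Ctsz, the carboxypeptidase cathepsin Z, was at 191, 207 and 248 FPKM in the LPS lungs, against 138, 116 and 156 FPKM in the control lungs (0.72 ± 0.15). All LPS lungs were above all control lungs for this gene.

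Integrin, PI3 kinase gamma and Rap1 genes, which carry leukocyte adhesion and migration, were higher in 31 of 37 tested members (45.8% of all genes). Of these, 11 were at an unadjusted p under 0.05 (5.52% of all genes) and 7 without overlap (4.00%), and the list median was 0.38. Next to Pik3r5 stood Itgam, the CD11b integrin of monocytes, macrophages and neutrophils, at 3.8, 3.68 and 4.53 FPKM with LPS, against 1.87, 1.73 and 2.53 FPKM in control (1.03 ± 0.24). Lcp1, the actin-bundling plastin of leukocytes, was at 101.03, 106 and 96.4 FPKM with LPS and 83.2, 53.02 and 69.5 FPKM in control (0.63 ± 0.17), and Fyb, an adaptor that couples receptors to integrins, was at 6, 5.06 and 5.52 FPKM with LPS and 3.46, 2.93 and 3.26 FPKM in control (0.88 ± 0.26). In 11 of the 37 members LPS replicate 1 lay below and LPS replicates 2 and 3 above all control libraries, a pattern that 5.03% of all genes showed. Leaving out LPS replicate 3 gave a median of 0.12, and leaving out LPS replicate 2 gave 0.28.

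**Figure D3:**
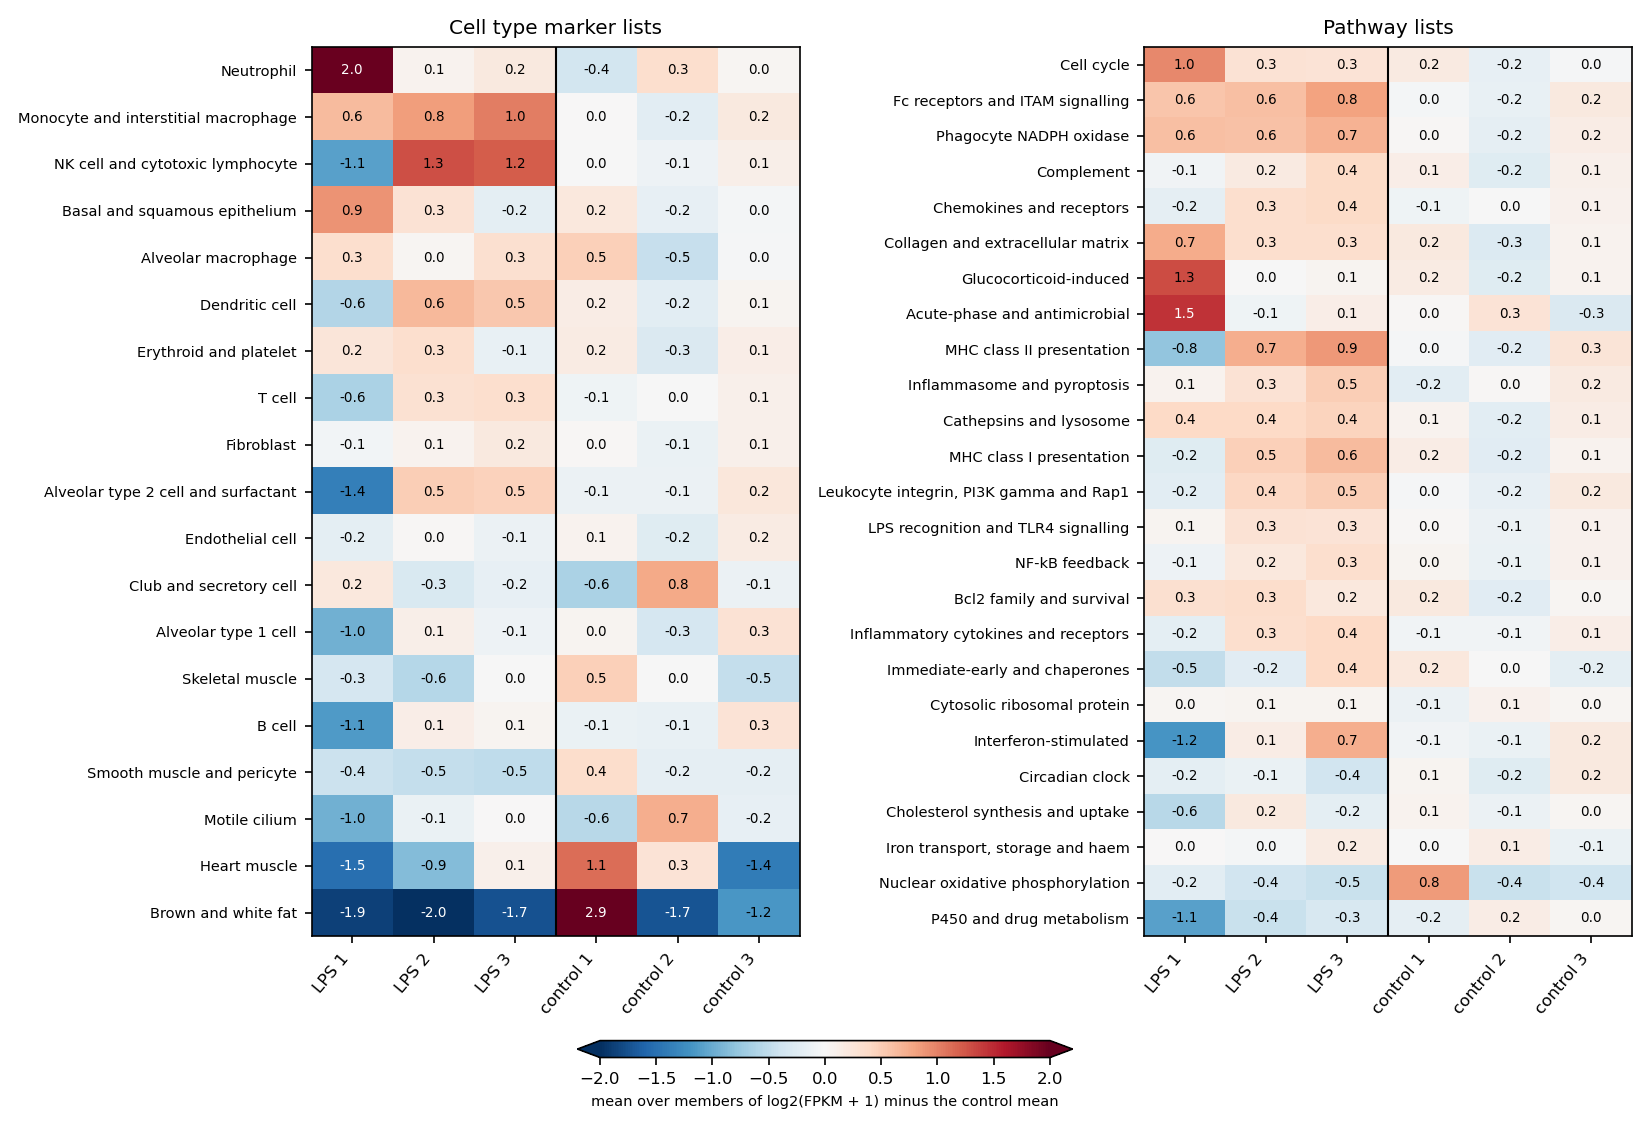
Mean over the tested members of each gene list of log2(FPKM + 1), less the mean of the 3 control libraries, in each LPS library (left) and control library (right); rows are ordered by the list's median log2 fold change and colours end at ±2. In 7 of the 44 lists all LPS libraries lie above all control libraries and in 3 they lie below, and LPS replicate 1 departs from LPS replicates 2 and 3 in many rows.

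Among the tested genes of LPS recognition, the enzyme that inactivates LPS had the highest log2 fold change, with the limit given below, and the receptor itself differed little. Of 35 tested genes of LPS recognition and TLR4 signalling, 26 were higher, 8 at an unadjusted p under 0.05 and 5 without overlap, with a median of 0.27 (leaving out LPS replicate 1 gave 0.17, and leaving out LPS replicate 3 gave 0.42). Aoah, acyloxyacyl hydrolase, which strips acyl chains from lipid A and so inactivates LPS, was at 1.08, 0.99 and 0.97 FPKM in the LPS lungs, against 0.18, 0.19 and 0.32 FPKM in the control lungs. The 3 LPS lungs were nearly equal and stood well above all control lungs at a low level (2.15 ± 0.45, edgeR adjusted p 0.149). Aoah reached the 0.5 FPKM minimum in 5 of the 12 libraries, among them all 3 LPS libraries and no control library. It was thus tested only through the group where it is high, and its rank in the list is no support for a difference. Among the receptors, Tlr4 was at 1.58, 1.43 and 1.05 FPKM with LPS, against 1.03, 1.01 and 1.09 FPKM in control (0.44 ± 0.24, 0.18 without LPS replicate 1) and Ly96 was at 4.71, 5.18 and 5.93 FPKM with LPS, against 5.25, 4.51 and 6.17 FPKM in control, both overlapping. Cd14, the co-receptor on monocytes and macrophages, was at 16.6, 15.4 and 24.9 FPKM in the LPS lungs, against 6.07, 14.6 and 11.8 FPKM in the control lungs (0.84 ± 0.34), with all LPS lungs above the control lungs by a narrow margin. Lbp, the serum protein that delivers LPS, was at 13.4, 21.3 and 28.2 FPKM with LPS, against 11.6, 24.9 and 23.3 FPKM in control. Tlr2, the receptor for bacterial lipopeptides, was at 5.61, 6.6 and 11.02 FPKM with LPS, against 4.75, 4.13 and 4.47 FPKM in control (0.84 ± 0.22), and Ikbke, a kinase of the interferon arm, was at 14.2, 8.07 and 7.73 FPKM with LPS, against 5.58, 6.63 and 4.59 FPKM in control (0.93 ± 0.36, 0.43 without LPS replicate 1), highest in LPS replicate 1. Cd180, a TLR4 homologue, stayed under the minimum for testing at 0, 0.54 and 0.35 FPKM with LPS and 0.2, 0.39 and 0.41 FPKM in control.

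Of 18 tested genes of NF-kB feedback, 14 were higher, 4 at an unadjusted p under 0.05 and 3 without overlap, with a median of 0.23. Tnfaip3, the ubiquitin-editing inhibitor A20, was at 2.94, 3.22 and 3.47 FPKM in the LPS lungs, against 2.02, 1.81 and 2.34 FPKM in the control lungs (0.69 ± 0.20). Birc3, a ubiquitin ligase of TNF receptor signalling, was at 7.94, 7.7 and 8.77 FPKM with LPS and 4.88, 6.23 and 6.14 FPKM in control (0.50 ± 0.17), and Il1rn, the interleukin 1 receptor antagonist, was at 6.32, 3.04 and 2.95 FPKM with LPS and 1.97, 1.47 and 1.78 FPKM in control (1.36 ± 0.39, 0.74 without LPS replicate 1). The LPS values of Tnfaip3 and Birc3 were close together, and those of Il1rn were led by LPS replicate 1. Nfkbia, the inhibitor IkB alpha, was at 404, 163 and 153 FPKM with LPS, against 159, 81.4 and 163 FPKM in control (1.00 ± 0.41, 0.21 without LPS replicate 1), with LPS replicate 1 high and the other libraries overlapping.

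Of the 5 inflammatory cytokine and receptor genes that separated the groups, 4 were receptors. Of 23 tested cytokine and receptor genes 16 were higher, 6 at an unadjusted p under 0.05 and 5 without overlap, with a median of 0.14 (leaving out LPS replicate 1 gave 0.24, and leaving out LPS replicate 3 gave 0.02). Il18rap, the accessory subunit of the interleukin 18 receptor, was at 4.89, 4 and 3.43 FPKM in the LPS lungs, against 1.37, 1.73 and 1.35 FPKM in the control lungs (1.54 ± 0.26). Il10ra, which binds interleukin 10, was at 13.5, 17 and 14.2 FPKM with LPS and 9.41, 4.47 and 8.01 FPKM in control (1.10 ± 0.20). Tnfrsf1b, the second TNF receptor, was at 23.9, 19.8 and 19.9 FPKM with LPS and 14.2, 6.85 and 10.7 FPKM in control (1.10 ± 0.22), and Csf2rb, the shared receptor chain for GM-CSF, interleukin 3 and interleukin 5, was at 2.79, 3.11 and 4.19 FPKM with LPS and 0.96, 1.62 and 1.74 FPKM in control (1.25 ± 0.33). The fifth was Osm, the cytokine oncostatin M of myeloid cells, at 13.2, 1.78 and 1.53 FPKM with LPS, against 1.46, 0.59 and 0.72 FPKM in control (2.80 ± 0.81, and 0.81 without LPS replicate 1, chosen after its values were seen). LPS replicate 1 was far above the other libraries for Osm, whereas the 4 receptor genes were alike in the 3 LPS lungs.

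Of the early mediators of the LPS response, 6 cytokine and chemokine genes fixed by name did not separate the groups. Osm, given above, and Cxcl3 and Cxcl10, given below, did separate them in FPKM. Il1b was at 15.5, 14.5 and 21.1 FPKM with LPS, against 5.05, 17.1 and 14.2 FPKM in control (0.51 ± 0.42), and Tnf was at 0.09, 1.28 and 1.95 FPKM with LPS, against 0.52, 0.66 and 0.88 FPKM in control (0.64 ± 0.73), lowest of all 6 libraries in LPS replicate 1. Il6 was under the minimum for testing at 1.46, 0.07 and 0.25 FPKM with LPS and 0.07, 0.14 and 0.19 FPKM in control, and so was the neutrophil chemokine Cxcl2 at 4.16, 0.41 and 0.54 FPKM with LPS and 0.21, 0.41 and 0.2 FPKM in control, with LPS replicate 1 highest in both. Cxcl1, another neutrophil chemokine, was at 0, 0.81 and 2.14 FPKM with LPS, against 1.5, 1.47 and 0.8 FPKM in control (−0.36 ± 0.89, 0.20 without LPS replicate 1), and the monocyte chemokine Ccl2 was at 6.54, 0.41 and 1.4 FPKM with LPS, against 0.63, 2.47 and 1.01 FPKM in control (1.19 ± 0.95, −0.66 without LPS replicate 1). In all 6 genes the groups overlapped or touched. Acod1, which makes itaconate in activated macrophages, was at 0.15 FPKM or less in all 6 libraries.

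Of 38 tested chemokines and receptors, 26 were higher, 9 at an unadjusted p under 0.05 and 6 without overlap, 1 was lower without overlap and at an unadjusted p under 0.05, and the median was 0.53 (0.35 without LPS replicate 1). Ccl6 and Ccl9, myeloid chemokines of the mouse, were led by LPS replicate 1. Ccl6 was at 256, 111 and 138 FPKM in the LPS lungs, against 74.5, 60.99 and 85.9 FPKM in the control lungs (1.33 ± 0.36, 0.71 without LPS replicate 1) and Ccl9 was at 50.3, 13.8 and 11.99 FPKM in the LPS lungs, against 6.96, 7.67 and 7.68 FPKM in the control lungs (1.93 ± 0.54, 0.73 without LPS replicate 1). Cxcr6, a receptor of tissue T and NK cells, was at 1.9, 2.71 and 3.25 FPKM with LPS, against 1.51, 1.62 and 1.13 FPKM in control (0.91 ± 0.30). Cxcl3, Cxcl10 and Cxcl14 were the other members without overlap. Cxcl3, a neutrophil chemokine, was at 0.53, 0.67 and 0.73 FPKM with LPS and 0.15, 0.07 and 0.07 FPKM in control (2.64 ± 0.90), and Cxcl10, induced by interferon, was at 5.23, 1.56 and 2.43 FPKM with LPS and 0.28, 1.49 and 0.46 FPKM in control (2.13 ± 0.76, 1.32 without LPS replicate 1), with these 2 chosen after their values were seen. Of these 6 libraries, Cxcl3 reached the 0.5 FPKM minimum for testing only in those with LPS, where it is high. Cx3cl1, the membrane-bound chemokine of endothelium and epithelium, was the lower member, at 3.81, 11.3 and 9.98 FPKM in the LPS lungs, against 16.4, 12.99 and 18.7 FPKM in the control lungs (−0.93 ± 0.29), lowest in LPS replicate 1.

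Interferon-stimulated genes were mixed. Of 38 tested, 21 were higher, 2 at an unadjusted p under 0.05 and 0 without overlap, with a median of 0.02. The list mean was −1.17, 0.15 and 0.72 in the LPS libraries and −0.07, −0.13 and 0.20 in control. LPS replicate 1 lay below all control libraries in 31 of the 38, where it did so in 51.6% of all genes, and the median was 0.41 without it and −0.61 without LPS replicate 3. Oas1a, which starts the RNase L pathway, was at 9.81, 14.2 and 23.9 FPKM with LPS, against 4.88, 6.17 and 10.5 FPKM in control (1.18 ± 0.31), and the antiviral tether Bst2 was at 217, 220.1 and 278 FPKM with LPS, against 218, 150.1 and 197 FPKM in control (0.43 ± 0.17). Inflammasome genes were higher in 11 of 13, 3 of them at an unadjusted p under 0.05 and 3 without overlap (median 0.44). Naip5, the flagellin sensor, was at 1.36, 1.69 and 1.76 FPKM with LPS and 0.97, 0.72 and 1.11 FPKM in control (0.80 ± 0.27), and Pycard, the adaptor ASC, was at 4.78, 4.21 and 4.18 FPKM with LPS and 1.82, 3.28 and 2.16 FPKM in control (0.91 ± 0.31).

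Genes of classical complement that macrophages make were higher. C1qa, C1qb and C1qc encode the chains of the recognition molecule C1q, and they also count in the macrophage list. C1qa was at 95.2, 104 and 133 FPKM in the LPS lungs, against 52.6, 42.6 and 65.02 FPKM in the control lungs (1.12 ± 0.23), C1qb was at 52.03, 63.6 and 79.3 FPKM with LPS and 24.8, 24.4 and 35.7 FPKM in control (1.26 ± 0.23), and C1qc was at 60.6, 61.5 and 79.5 FPKM with LPS and 31.9, 28.5 and 37.6 FPKM in control (1.12 ± 0.22). C3ar1, the receptor for the anaphylatoxin C3a, was at 0.79, 1.16 and 0.99 FPKM in the LPS lungs, against 0.37, 0.29 and 0.29 FPKM in the control lungs (1.68 ± 0.29). In these 4 genes all LPS lungs were above all control lungs and LPS replicate 1 did not stand out. C3ar1 was low, and it reached the 0.5 FPKM minimum in 5 of the 12 libraries, all LPS or LPS+bLF. It was thus tested only through libraries of LPS mice, where it is high, which does not hold for the C1q genes. Of 26 tested complement genes 18 were higher (45.8% of all genes), 13 at an unadjusted p under 0.05 (5.52%) and 9 without overlap (4.00%). The median was 0.58, and 1 gene was lower without overlap (3.92% of all genes). That lower gene was Cfd, also the fat gene adipsin, at 0.11, 0.55 and 3.91 FPKM with LPS, against 2373, 6.42 and 65.3 FPKM in control, highest in control replicate 1, the library with fat RNA.

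Antigen presentation genes split the LPS lungs. MHC class I presentation genes were higher in 19 of 24, 9 at an unadjusted p under 0.05 and 2 without overlap, with a median of 0.38 (0.54 when LPS replicate 1 was left out, 0.24 without LPS replicate 3). H2-T23, the class Ib molecule Qa-1, was at 201, 256 and 339 FPKM in the LPS lungs, against 155, 114 and 155 FPKM in the control lungs (0.96 ± 0.18), and Psmb8, a catalytic subunit of the immunoproteasome, was at 119, 133 and 142 FPKM in the LPS lungs, against 95.4, 80.3 and 81.1 FPKM in the control lungs (0.68 ± 0.16). Both separated the groups, though reads of H2-T23 could be shared with related class I genes. H2-Q4, another class Ib gene, was at 51.6, 116 and 152 FPKM in the LPS lungs, against 53.5, 42.4 and 49.1 FPKM in the control lungs and overlapped only through LPS replicate 1. Of 17 MHC class II presentation genes 15 were higher, 2 at an unadjusted p under 0.05 and 3 without overlap (median 0.44, 0.24 without LPS replicate 3), and in 10 LPS replicate 1 lay below and LPS replicates 2 and 3 above all control libraries (5.03% of all genes). H2-Ab1, the beta chain of the class II molecule I-A, was at 271, 1421 and 1614 FPKM in the LPS lungs, against 656, 495 and 654 FPKM in the control lungs. Without LPS replicate 1 the class II median was 0.94, and edgeR gave H2-Ab1 a log2 fold change of 1.30 with an adjusted p of 0.0209. Of the co-stimulators, Cd80 was at 2.33, 1.58 and 1.14 FPKM with LPS, against 0.66, 0.41 and 0.74 FPKM in control (1.57 ± 0.42) and Cd40 was at 9.84, 9.16 and 9.18 FPKM with LPS, against 8.19, 9.07 and 8.73 FPKM in control. Values of H2-Q4 and H2-Ab1 were seen before these 2 genes were chosen.

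Genes of NK cells and cytotoxic lymphocytes were high in 2 LPS lungs and low or at 0 in LPS replicate 1. All 16 tested members had a higher fitted mean with LPS (median 1.01, and 0.65 without either of LPS replicates 2 and 3), but 3 were at an unadjusted p under 0.05 and 1 had no overlap. In 15 of the 16, LPS replicate 1 lay below all control libraries and LPS replicates 2 and 3 above all of them. The summed level of the list was 32.7, 613 and 564 FPKM in the LPS lungs, against 138, 133 and 166 FPKM in the control lungs. Nkg7, a granule membrane protein, was at 3.74, 62.6 and 59.03 FPKM in the LPS lungs, against 18.3, 13.1 and 17.9 FPKM in the control lungs. Gzmb, the granule protease granzyme B, was at 0, 9.16 and 11.3 FPKM with LPS, against 0.98, 2.01 and 2.01 FPKM in control, and Prf1, the pore former perforin, was at 0.17, 8.86 and 8.23 FPKM with LPS, against 2.79, 2.13 and 3.1 FPKM in control. Klrg1, a receptor of differentiated effector cells, was at 0.1, 4.3 and 5.29 FPKM with LPS, against 1.16, 0.83 and 0.96 FPKM in control, and Tbx21, the transcription factor T-bet, was at 0.26, 3.25 and 3.13 FPKM with LPS, against 0.8, 0.73 and 1.1 FPKM in control. Ccl5, a chemokine of these cells, was at 14.6, 321 and 307 FPKM in the LPS lungs, against 56.8, 64.98 and 79.7 FPKM in the control lungs. Il2rb, the beta chain of the interleukin 2 and 15 receptors, was the only member without overlap, at 2.32, 5.18 and 5.42 FPKM in the LPS lungs, against 2.18, 1.92 and 2.21 FPKM in the control lungs (1.04 ± 0.33). Without LPS replicate 1 edgeR called 8 of the 16, where it called 0.182% of all genes, and the list median was 1.42, with Nkg7 at 1.85 (adjusted p 0.00118), Gzmb at 2.55 (adjusted p 0.0319) and Klrg1 at 2.24 (adjusted p 0.023). These calls rest on 2 LPS mice. LPS replicate 1 was the library that lay low in 15 of the 16, so leaving it out raises the difference by construction. The calls are therefore no independent support. Without LPS replicate 1 and control replicate 1 together, edgeR called 1 of 13735 genes. Values of Nkg7, Gzmb, Prf1, Klrg1, Tbx21 and Ccl5 were seen before these genes were chosen.

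T cell markers were higher in 12 of 20 (45.8% of all genes), 1 at an unadjusted p under 0.05 (5.52%) and 4 without overlap (4.00%). The median of 0.17 became 0.35, −0.05 and −0.07 without LPS replicates 1, 2 and 3. Icos, a co-stimulator of activated T cells, was at 0.77, 0.91 and 1.26 FPKM with LPS and 0.51, 0.58 and 0.58 FPKM in control (0.85 ± 0.34), and the inhibitory receptor Ctla4 was at 0.97, 0.37 and 0.43 FPKM with LPS and 0.23, 0.24 and 0.25 FPKM in control (1.398 ± 0.66, 0.71 without LPS replicate 1). Ctla4 was near the floor, with 26, 10 and 13 counts with LPS and 6, 7 and 7 in control. It reached 0.5 FPKM in 3 of the 12 libraries, and among these 6 only in LPS replicate 1. Lat, an adaptor of the T cell receptor, was at 22.8, 25.3 and 22.7 FPKM with LPS and 19.4, 15.8 and 19.2 FPKM in control (0.45 ± 0.28), and Cd6 was at 1.19, 1.12 and 1.33 FPKM with LPS and 1, 1.11 and 0.9 FPKM in control (0.30 ± 0.36). Cd3e, a defining chain of the T cell receptor complex, was listed at 0 in LPS replicate 1, at 3.64 and 3.33 FPKM in LPS replicates 2 and 3, and at 1.81, 1.53 and 2.57 FPKM in control. B cell markers were higher in 3 of 17, 0 at an unadjusted p under 0.05, with a median of −0.38 (−0.07 when LPS replicate 1 was left out, −0.63 without LPS replicate 3 and −0.17 without control replicate 3). Vpreb3, a gene of B cell precursors, was at 5.07, 39.01 and 36.3 FPKM with LPS, against 31.1, 55.1 and 50.6 FPKM in control (−0.86 ± 0.57, −0.38 without LPS replicate 1). LPS replicate 1 was the lowest library for all of T, B and NK cell list means, at −0.64, −1.13 and −1.08. It was also the lowest over all genes tested, at −0.25. The same held for the lists of dendritic cells (−0.58), type 1 cells (−0.95) and motile cilia (−0.97), so a low mean in this library is not particular to lymphocytes. Dendritic cell markers were higher in 12 of 17, 4 at an unadjusted p under 0.05 and 1 without overlap (median 0.43, 0.26 without control replicate 2). Batf3, a transcription factor of cross-presenting dendritic cells, was at 3.66, 10.2 and 6.12 FPKM with LPS, against 3.41, 3.58 and 2.79 FPKM in control (1.05 ± 0.36).

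**Figure D4:**
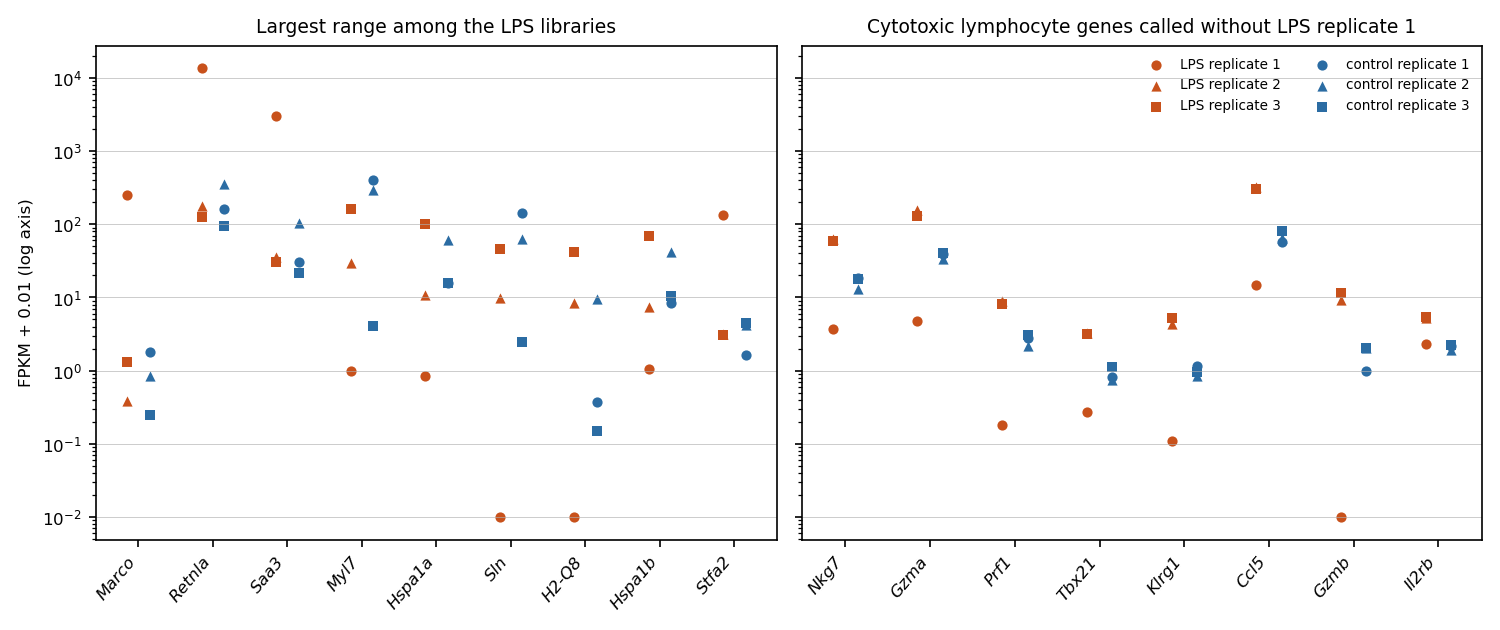
FPKM plus 0.01 (log axis) in each library, with the replicate number shown by the symbol, for the genes with the largest range among the LPS libraries (left) and for the cytotoxic lymphocyte genes called by edgeR without LPS replicate 1 (right). LPS replicate 1 is highest for Marco, Retnla, Saa3 and Stfa2 and lowest for all 8 cytotoxic genes of the LPS group.

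LPS replicate 1 also set the neutrophil and acute-phase genes apart. Of 21 neutrophil markers 17 were higher, 11 at an unadjusted p under 0.05 and 2 without overlap, and the median of 1.51 became −0.02 without LPS replicate 1. Their summed level was 2611, 662 and 825 FPKM in the LPS lungs, against 364, 997 and 743 FPKM in the control lungs. S100a8, an abundant calcium-binding protein of neutrophils, was at 225, 102 and 136 FPKM with LPS, against 55.3, 281 and 209 FPKM in control, and Ltf, the mouse's own lactoferrin, was at 60.1, 5.78 and 2.58 FPKM with LPS, against 2.02, 3.06 and 1.09 FPKM in control (3.67 ± 1.61, 0.92 without LPS replicate 1). Clec4d, a myeloid lectin receptor, was at 21.1, 4.94 and 8.43 FPKM with LPS, against 2.28, 4.56 and 3.84 FPKM in control (1.83 ± 0.55, 0.84 without LPS replicate 1) and Lcn2, lipocalin 2, which binds bacterial siderophores, was at 512, 277 and 370.2 FPKM with LPS, against 107, 265 and 186 FPKM in control (1.14 ± 0.44, 0.72 without LPS replicate 1). In FPKM LPS replicate 2 was just above the highest control library for these 2 genes and LPS replicate 3 further above it, and on TMM-scaled CPM the groups overlapped.

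Acute-phase and antimicrobial genes were higher in 16 of 23, 9 at an unadjusted p under 0.05 and 4 without overlap, with a median of 0.46 that became −0.10 without LPS replicate 1 and 1.37 without control replicate 2. Lrg1, an acute-phase glycoprotein of liver and endothelium, was at 390.4, 194 and 214 FPKM in the LPS lungs, against 139.9, 50.2 and 82.7 FPKM in the control lungs (1.71 ± 0.40, and 1.15 without LPS replicate 1). Slpi, a protease inhibitor of airway secretions, was at 305, 108 and 132 FPKM with LPS and 67.1, 40.4 and 62.02 FPKM in control (1.87 ± 0.55, 1.07 without LPS replicate 1), and Pglyrp1, which binds peptidoglycan, was at 356, 91.7 and 77.9 FPKM with LPS and 66.6, 71.7 and 70.03 FPKM in control (1.54 ± 0.59, 0.24 without LPS replicate 1). Lrg1 and Slpi were above control in each LPS lung by a clear margin, whereas Pglyrp1 was far above control only in LPS replicate 1. Saa3, the serum amyloid A made in inflamed tissue, was at 3021, 36.2 and 30.4 FPKM in the LPS lungs, against 30.9, 103 and 21.4 FPKM in the control lungs, and its log2 fold change of 4.59 ± 1.78 became −0.75 without LPS replicate 1. Glucocorticoid-induced genes had a median of 0.47 that became 0.03 without LPS replicate 1 and 0.30 to 0.85 without each other library in turn (19 of 25 higher, 8 at an unadjusted p under 0.05, 2 without overlap). Sgk1, a kinase of this group, was at 26.1, 17.9 and 20 FPKM with LPS, against 15.1, 15.4 and 15.8 FPKM in control (0.54 ± 0.25, 0.23 without LPS replicate 1).

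Over the whole transcriptome, LPS replicate 1 lay more than 1 on the log2(FPKM + 1) scale above the control mean for 960 genes and below it for 2291. For LPS replicate 2 these counts were 114 and 98, and for LPS replicate 3 they were 168 and 75. Among the 100 genes with the largest range within the LPS group at a mean of at least 5 FPKM, LPS replicate 1 was the library apart in 92, highest in 34 and lowest in 58. Retnla, a secreted protein of alternatively activated macrophages and epithelium, was at 13654, 176 and 124 FPKM in the LPS lungs, against 161, 351 and 93.8 FPKM in the control lungs. Stfa2, a protease inhibitor of myeloid cells with near-identical copies, was at 133, 3.14 and 3.08 FPKM with LPS, against 1.63, 4.16 and 4.43 FPKM in control. LPS replicate 3 stood apart for the inducible heat shock genes Hspa1a, at 0.83, 10.9 and 102 FPKM with LPS, against 15.8, 61.2 and 15.9 FPKM in control, and Hspa1b, at 1.04, 7.5 and 69.05 FPKM with LPS, against 8.45, 41.3 and 10.6 FPKM in control, though control replicate 2 was high as well. Myl7 and Sln, genes of heart atrium, varied in both groups, with Myl7 at 0.97, 29.5 and 162 FPKM with LPS, against 400.1, 295 and 4.11 FPKM in control and Sln at 0, 9.93 and 45.4 FPKM with LPS, against 141, 62.3 and 2.47 FPKM in control. LPS replicate 1 also had the lowest level of the surfactant gene Sftpc among the 6 libraries, at 43000 FPKM, where LPS replicates 2 and 3 had 141631 and 166276 FPKM and the control libraries had 67658, 91687 and 125929 FPKM. H2-Q8, a class Ib gene with near-identical copies, was at 0, 8.47 and 42.2 FPKM with LPS, against 0.36, 9.43 and 0.14 FPKM in control. With 1 mouse behind each library, what sets LPS replicate 1 apart was not tested.

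The list means of matrix and cell cycle genes were higher in all LPS lungs and highest in replicate 1. Of 38 matrix genes 32 were higher (45.8% of all genes), 16 at an unadjusted p under 0.05 (5.52%) and 12 without overlap (4.00%). In the other direction 1 was lower without overlap (3.92% of all genes), and the median was 0.49 (0.26 without LPS replicate 1). Col3a1, the fibrillar collagen III chain, was at 45.3, 39.8 and 46.3 FPKM in the LPS lungs, against 27.6, 20.97 and 27.6 FPKM in the control lungs (0.86 ± 0.24), and Col1a1, a collagen I chain, was at 64.4, 29.9 and 32.5 FPKM in the LPS lungs, against 26.2, 15.7 and 25.9 FPKM in the control lungs (1.04 ± 0.35, 0.43 without LPS replicate 1). Col1a2 was at 113, 70.4 and 81.05 FPKM with LPS and 59.7, 46.99 and 57.5 FPKM in control (0.79 ± 0.26, 0.42 without LPS replicate 1). Eln, the elastin of airways, vessels and alveolar walls, was at 2147, 336 and 266 FPKM in the LPS lungs, against 232, 62.1 and 81.9 FPKM in the control lungs (3.17 ± 0.88, and 1.27 without LPS replicate 1). Tnc, tenascin C of wounded tissue, was at 3.02, 3.22 and 3.93 FPKM with LPS and 2.08, 1.43 and 1.75 FPKM in control (1.02 ± 0.29), and Timp1, an inhibitor of matrix metalloproteinases, was at 462, 17.2 and 14.3 FPKM with LPS and 13.9, 11.8 and 8.27 FPKM in control (4.13 ± 1.203, and 0.44 without LPS replicate 1). Col3a1 and Tnc thus had like levels in the 3 LPS lungs, while LPS replicate 1 carried most of the difference in Eln and nearly all of it in Timp1. Fibroblast markers at large had a median of 0.11, with 0.28 without LPS replicate 2 and 0.22 without control replicate 2. Of 20 tested, 13 were higher (45.8% of all genes), 4 at an unadjusted p under 0.05 (5.52%) and 4 without overlap (4.00%). The elastic fibre gene Mfap5 was 1 of these 4, at 52.8, 55.7 and 48.2 FPKM with LPS and 45.1, 20.7 and 33.5 FPKM in control (0.75 ± 0.26).

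Of 30 cell cycle genes 29 were higher (45.8% of all genes), 13 at an unadjusted p under 0.05 (5.52%) and 11 without overlap (4.00%). The median was 0.97 (0.40 without LPS replicate 1). Rrm2, the subunit of ribonucleotide reductase made in S phase, was at 2.17, 2.04 and 1.93 FPKM in the LPS lungs, against 0.64, 0.51 and 0.97 FPKM in the control lungs (1.61 ± 0.35). Top2a, topoisomerase II alpha, was at 4.07, 1.88 and 1.81 FPKM with LPS and 1.41, 0.64 and 1.02 FPKM in control (1.48 ± 0.42, 0.82 without LPS replicate 1). Ccna2, cyclin A2, was at 6.01, 2.36 and 2.02 FPKM with LPS and 1.61, 1.09 and 1.07 FPKM in control (1.61 ± 0.46, 0.75 without LPS replicate 1), Tpx2, a spindle assembly factor, was at 5.39, 1.74 and 2.01 FPKM with LPS and 1.59, 0.87 and 1.04 FPKM in control (1.74 ± 0.54, 0.60 without LPS replicate 1), and the proliferation marker Mki67 was at 8.01, 1.96 and 1.59 FPKM with LPS and 1.85, 0.89 and 0.8 FPKM in control (1.89 ± 0.63, 0.55 without LPS replicate 1). Rrm2 was even across the LPS lungs, and LPS replicate 1 was highest in the other 4 genes, of which Mki67 overlapped.

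Contractile genes of smooth muscle were lower with LPS. Myh11, the smooth muscle myosin heavy chain (ID 17880, chromosome 16, 14194527 to 14292188), was at 10.2, 13.1 and 14.8 FPKM in the LPS lungs, against 37.96, 30.8 and 21.8 FPKM in the control lungs. All LPS lungs were below all control lungs (−1.22 ± 0.21, edgeR adjusted p 0.0957). Cnn1, the actin-binding calponin 1, was at 34.8, 25.9 and 27.5 FPKM in the LPS lungs, against 89.1, 76.02 and 45.3 FPKM in the control lungs (−1.17 ± 0.28). Lmod1, a nucleator of smooth muscle actin, was at 1.3, 2.14 and 1.76 FPKM with LPS and 5.83, 3.35 and 2.45 FPKM in control (−1.12 ± 0.29), and Synpo2, an actin-bundling protein, was at 0.15, 0.75 and 0.83 FPKM with LPS and 1.8, 1.28 and 0.95 FPKM in control (−1.29 ± 0.47). Acta2, the smooth muscle actin, was at 219, 113 and 106 FPKM with LPS, against 535, 202 and 156 FPKM in control (−0.88 ± 0.48), and it overlapped because LPS replicate 1 was above control replicates 2 and 3. Of 23 smooth muscle and pericyte markers 20 were lower, 5 at an unadjusted p under 0.05 and 6 without overlap, with a median of −0.47 (−0.67 without LPS replicate 1).

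Control replicate 1 was the highest library for these 5 genes, and it also had the most fat and heart RNA of the 6 libraries. Heart RNA was not confined to it. The summed level of the heart list was 1286, 788 and 114 FPKM in control and 111, 184 and 553 FPKM with LPS. Leaving out control replicate 1 thus does not remove all heart RNA. Of 18 fat genes 17 were lower with LPS, with a median of −4.69 that became −0.39 without control replicate 1. Adipoq, the fat cell hormone adiponectin, was at 0.17 FPKM or less in the LPS lungs, against 119.55, 0.29 and 4.99 FPKM in control. The heart myosin gene Myh6 was at 1.06, 4.71 and 12.7 FPKM with LPS, against 25.1, 9.21 and 2.7 FPKM in control. Without control replicate 1 the smooth muscle median was −0.22, with log2 fold changes of −1.07 for Myh11, −1.01 for Cnn1, −1.05 for Synpo2, −0.76 for Lmod1 and −0.22 for Acta2. The nuclear genes of oxidative phosphorylation, abundant in brown fat and heart, likewise had a median of −0.33 with all libraries and 0.22 without control replicate 1, and −0.56 to −0.21 without each other library in turn (6 of 39 higher, 1 lower at an unadjusted p under 0.05). The part of the fat and heart RNA in the smooth muscle difference was not tested. Heart muscle genes had a median of −1.21 (3 of 18 higher) that became −0.48 without control replicate 1, and skeletal muscle genes one of −0.35 (3 of 11 higher) that became −0.02.

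Xenobiotic metabolism genes were lower as well. Of 38 tested cytochrome P450 and other drug-metabolizing genes 31 were lower and 7 higher, with 3 lower and 2 higher at an unadjusted p under 0.05, 8 lower and 2 higher without overlap, and a median of −0.56. The carboxylesterases Ces1g and Ces1d were at 0.38, 0.71 and 1.49 FPKM with LPS and 1.83, 3.8 and 3.19 FPKM in control (−1.77 ± 0.49) for Ces1g and at 126, 192 and 216 FPKM with LPS and 246, 261 and 275 FPKM in control (−0.52 ± 0.20) for Ces1d. Cyp4v3, a fatty acid hydroxylase, went the other way at 29.3, 18.3 and 18.2 FPKM with LPS, against 14.6, 11.8 and 13.8 FPKM in control (0.82 ± 0.24, 0.40 without LPS replicate 1). The list holds 3 club cell genes, and control replicate 2 had the most RNA of the club cell secretoglobin Scgb1a1, which was at 68089, 97222 and 287133 FPKM with LPS, against 114067, 1056141 and 268221 FPKM in control. Its part in these values was not tested, and the list median was −0.41 without that library.

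Asgr1, a subunit of the asialoglycoprotein receptor known from liver, was at 1.87, 1.59 and 2.05 FPKM in the LPS lungs, against 5.81, 8.81 and 5.31 FPKM in the control lungs. The LPS lungs were nearly equal and all below the control lungs (−1.80 ± 0.34, edgeR adjusted p 0.106, called by DESeq2). Tsku, a small leucine-rich proteoglycan, was at 1.18, 2.47 and 2.79 FPKM with LPS and 4.48, 6.4 and 4.65 FPKM in control (−1.27 ± 0.31), and the adaptor gene Lurap1 was at 1.29, 2.16 and 2.05 FPKM with LPS and 6.26, 4.16 and 3.11 FPKM in control (−1.25 ± 0.30). Gnaz, an inhibitory G protein alpha subunit, was at 0.56, 1 and 0.88 FPKM with LPS and 1.58, 1.6 and 1.58 FPKM in control (−0.94 ± 0.25), and the zinc finger gene Zfp160 was at 0.8, 1.34 and 1.35 FPKM with LPS and 1.96, 1.81 and 2.12 FPKM in control (−0.72 ± 0.21). In all of these the groups did not overlap. The 12 leading lower genes had edgeR adjusted p values of 0.0957 to 0.435, DESeq2 called 9 of them and edgeR without LPS replicate 1 called 0.

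Endothelial markers were split, with 11 of 22 higher and a median of −0.05, near that of all genes. Pecam1, the CD31 adhesion molecule, was at 166, 209 and 222 FPKM with LPS, against 214, 169.7 and 231 FPKM in control. Some regulators of vessels were lower. Ednrb, the endothelin B receptor, was at 9.49, 12.6 and 11.2 FPKM in the LPS lungs, against 16, 16.6 and 18.2 FPKM in the control lungs (−0.61 ± 0.15), and Eng, the TGF beta co-receptor endoglin, was at 111, 201 and 230.2 FPKM in the LPS lungs, against 261, 246 and 305 FPKM in the control lungs (−0.56 ± 0.23). Ramp2, the partner of the adrenomedullin receptor, was at 1383, 1392 and 1287 FPKM with LPS, against 1565, 1530.2 and 2095 FPKM in control (−0.27 ± 0.23). Smad6, which inhibits BMP signalling and is high in endothelium, was at 56.1, 70.7 and 87.5 FPKM in the LPS lungs, against 127, 87.7 and 131 FPKM in the control lungs (−0.65 ± 0.17), with a narrow gap between the groups. No member of the list was higher without overlap, and 3 were lower.

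Epithelial genes were not higher or lower together. Alveolar type 2 cell genes had a median of 0.07 (12 of 18 higher, 0 at an unadjusted p under 0.05) that became 0.39, −0.07 and −0.20 without LPS replicates 1, 2 and 3, with list means of −1.36, 0.49 and 0.46 in the LPS libraries and −0.12, −0.12 and 0.23 in control. Sftpd, a surfactant collectin that binds LPS, was at 893, 1060.0 and 989.9 FPKM in the LPS lungs, against 773, 652 and 857 FPKM in the control lungs (0.43 ± 0.23) and was the only member without overlap. Alveolar type 1 markers had a median of −0.24 (4 of 15 higher), −0.10 when LPS replicate 1 was left out and −0.37 when LPS replicate 2 was, and Ager was at 5919, 6037 and 5551 FPKM with LPS, against 5852, 3701 and 6413 FPKM in control. Scgb3a1, a secretoglobin of the upper airways, was at 923, 407 and 129 FPKM in the LPS lungs, against 60.4, 37.6 and 70.6 FPKM in the control lungs (3.37 ± 1.75, 2.22 without LPS replicate 1), above control in every LPS lung but spread widely. The other club cell markers did not separate the groups. All 19 tested genes of motile cilia were lower, 0 at an unadjusted p under 0.05 and 0 without overlap, and their median of −0.56 became 0.26 without control replicate 2. Markers of basal and squamous epithelium had a median of 0.85 that became −0.11 without LPS replicate 1 and 0.37 to 1.52 without each other library in turn (5 of 7 higher). Erythroid and platelet genes had a median of 0.21 that became −0.03 without it (10 of 16 higher). Foxj1, which drives ciliated cell fate, was at 5.71, 15.5 and 28.96 FPKM with LPS, against 8.87, 51.5 and 19.9 FPKM in control (−0.75 ± 0.63, −0.38 without LPS replicate 1).

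Clock genes had a median of −0.17, and leaving out LPS replicate 1, LPS replicate 3 or control replicate 3 gave −0.35, −0.03 or −0.09 (8 of 20 higher, 4 lower at an unadjusted p under 0.05 and 2 lower without overlap). Per3 was at 5.65, 6.64 and 5.12 FPKM with LPS, against 8.2, 9.14 and 12.9 FPKM in control (−0.74 ± 0.24), and Wee1, a cell cycle kinase under clock control, was at 0.29, 0.88 and 0.95 FPKM with LPS, against 0.98, 1.51 and 1.68 FPKM in control (−0.996 ± 0.39). The hour of collection is not given, and its part was not tested. Iron genes had a median of −0.22, which became 0.09 without control replicate 2 and −0.04 without LPS replicate 1 (11 of 25 higher, 3 at an unadjusted p under 0.05), with the ferritin light chain Ftl1 at 5182, 4888 and 6019 FPKM with LPS, against 4393, 4303 and 4813 FPKM in control (0.33 ± 0.20). Cholesterol genes had a median of −0.17 (8 of 21 higher, −0.35 to −0.01 when 1 library was left out), and ribosomal protein genes had a median of 0.13 (34 of 50 higher, −0.01 to 0.29), each with 0 at an unadjusted p under 0.05. Immediate-early and stress chaperone genes had a median of 0.13, and leaving out LPS replicate 3, LPS replicate 1 or control replicate 3 gave −0.22, −0.03 or −0.06 (13 of 23 higher, 2 higher and 2 lower at an unadjusted p under 0.05). Egr2 was the only one of them without overlap, at 1.71, 1.5 and 1.58 FPKM with LPS and 1.45, 0.65 and 0.93 FPKM in control (0.75 ± 0.31).

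In the mice that received lactoferrin, the same comparison used other animals. Ms4a7 was at 2.78, 2.55 and 3.61 FPKM in LPS+bLF, against 1.64, 0.94 and 1.34 FPKM in bLF. Ctss was at 153, 121 and 121 FPKM in LPS+bLF, against 82.96, 97.9 and 106 FPKM in bLF, and Bcl2a1b was at 16.6, 13.5 and 15.1 FPKM in LPS+bLF, against 7.51, 8.95 and 9.77 FPKM in bLF. All 3 genes separated LPS+bLF from bLF lungs. Of the 12 leading higher genes, 10 had a higher mean in LPS+bLF than in bLF, where 48.2% of all genes did, and of the 12 leading lower genes 7 had a lower mean, where 51.7% of all genes did. Asgr1 was at 4.71, 5.9 and 7.17 FPKM in LPS+bLF, against 7.12, 4.4 and 6.13 FPKM in bLF. Myh11 was at 17.9, 17.3 and 13.8 FPKM in LPS+bLF, against 21.3, 16.9 and 20.4 FPKM in bLF, and Cnn1 was at 42.2, 39.5 and 48.1 FPKM in LPS+bLF, against 61.7, 47.97 and 48.9 FPKM in bLF. All 3 genes overlapped between these groups. For the difference between the 2 LPS effects edgeR's quasi-likelihood test called 0 of 13735 genes, 384 had a p under 0.05 before adjustment (2.80%), and DESeq2 called 1. Because the leading genes were picked for their difference without lactoferrin, a smaller difference with it is no evidence of an effect of lactoferrin.

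**Figure D5:**
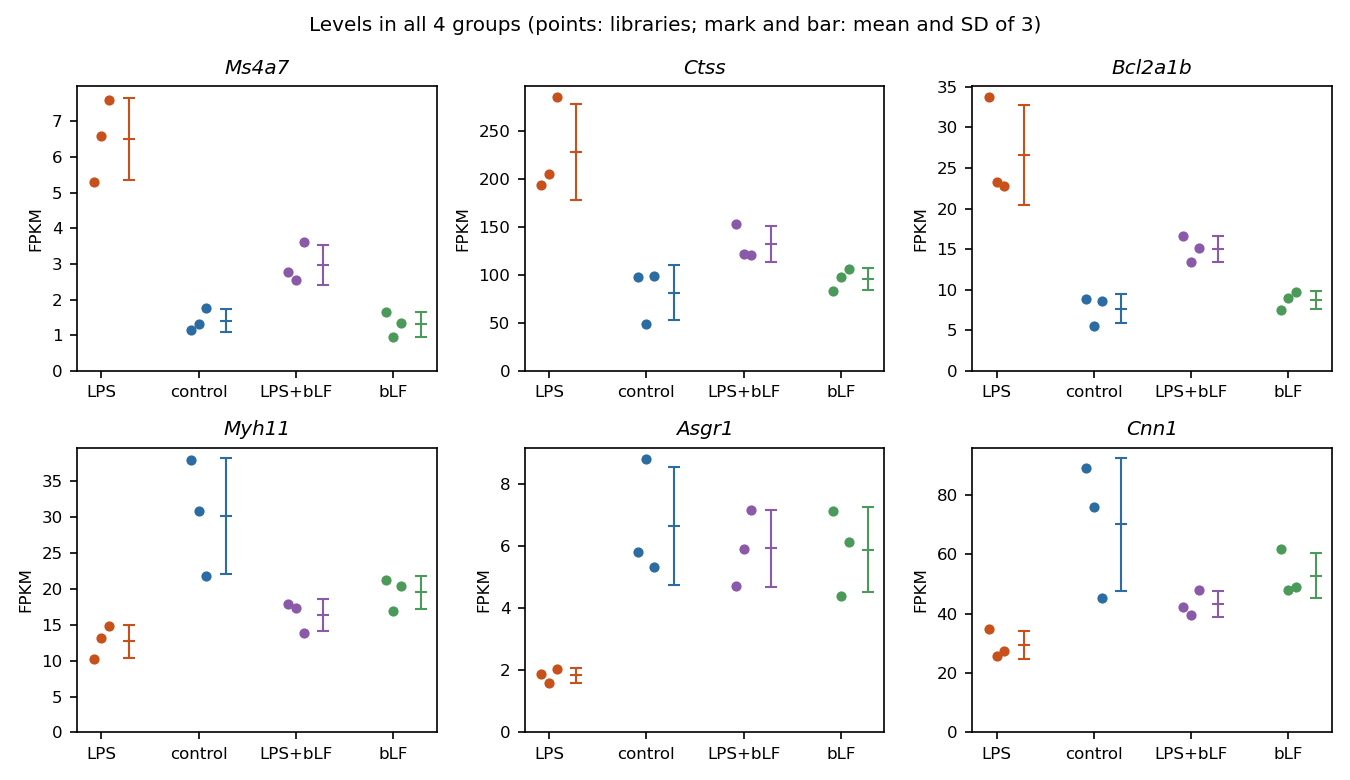
FPKM of 6 leading genes in the 3 libraries of each of the 4 groups, with the mean and SD of 3 beside the points. Ms4a7, Ctss and Bcl2a1b are highest in the LPS group, and Asgr1 is near 1.84 FPKM in the LPS group and between 4.40 and 8.81 FPKM in the other 9 libraries.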

How the data were processed

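Libraries of polyadenylated RNA from whole lung were made from 3 of the 6 mice in each of 4 groups. Per the submitters' processing notes, HISAT2 2.1.0, RSEM 1.2.8 and the mm10 build were used, and their order and settings are not given in the sources used here. Per the file headers, each deposited table holds for 17920 genes an estimated count, which the authors' counting need not make whole, and an FPKM value, whose exact scaling is not given in the sources used here. Of these genes, 17869 matched RefSeq by gene ID. The deposited FPKM summed to 1817592 in control replicate 2 and to 1053284 to 1303981 in the other 11 libraries.

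Expected counts were rounded to whole numbers. Genes that reached 0.5 FPKM in 3 or more of the 12 libraries were tested with edgeR 4.0.16 in R 4.3.3 (TMM scaling, quasi-likelihood test, 1 term per group, all 12 libraries, 8 residual degrees of freedom, Benjamini-Hochberg adjustment over 13735 genes). The LPS by lactoferrin interaction came from the same fit. DESeq2 1.42.0 and limma 3.58.1, on log2(FPKM + 1) and as voom with sample quality weights, were alternatives. The scripts were tested on simulated data. Levels, overlap between groups and list means used deposited FPKM. The correlation of the deviations of same-numbered LPS and control libraries was 0.396, 0.089 and 0.14. Differently numbered libraries were not correlated beside them, so these values cannot decide whether the numbers pair mice. The main fit did not take them as pairs, and a fit with the replicate number as a block is given below. Each library is 1 mouse, so the edgeR p-values rest on the spread between mice within groups, estimated over all 12 libraries. With the 6 LPS and control libraries alone, edgeR's smallest adjusted p was 0.889.

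Named were the 12 higher and 12 lower genes with the smallest p at a mean of at least 1 FPKM over the 6 libraries, up to 4 non-overlapping members of each list with the smallest p (or 2 where there was none), the 10 genes with the largest range among LPS libraries at a mean of at least 5 FPKM, and genes fixed by name. Predicted genes were counted and not named, some genes are not reported here, and the text says which other genes were picked with their values in view. The comparison, the 44 gene lists and the naming rule were chosen with earlier results of these data known. Lists are described by counts and medians and were not tested. Antisense and overlapping genes cannot be told apart, since strand is not given in the sources used here.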

Additional observations from a re-analysis of the deposited data

How the results depend on the processing

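Calls depended on the tool and on single libraries. For LPS against control, DESeq2 called 138 genes, limma-voom with sample quality weights 168 and limma on log2(FPKM + 1) 2, where edgeR called 0. Leaving out 1 library at a time gave 0 to 25 calls, with 25 without LPS replicate 1. Leaving out LPS replicate 1 and control replicate 1 together gave 1. edgeR called 0 under relative log expression or upper-quartile scaling, without a filter, with a filter at a mean of 5 FPKM, in a robust fit, with the newer dispersion moderation, with the 6 libraries alone and against a minimum log2 fold change of 1, and limma on log2(FPKM + 0.1) called 0.

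Genes at an unadjusted p under 0.05 numbered 980 in the edgeR fit of all libraries, 573 at a mean of at least 5 FPKM, where fewer genes were tested, 1976 with limma-voom weights, 502 with the 6 libraries alone, 147 against a minimum log2 fold change of 1, and 594 to 2327 when 1 library was left out (594 without control replicate 2, 2327 without LPS replicate 3). With the replicate number as a block, 0 genes were called and 765 were at an unadjusted p under 0.05, and this block changed no other call. The interaction had 1 call with DESeq2. Non-overlapping genes numbered 669 higher and 630 lower on TMM-scaled CPM. This scale, the newer dispersion moderation and the joint omission of 2 libraries were chosen after seeing the data.

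Of 120 genes whose log2 fold change is printed, 6 changed direction somewhere. Leaving out 1 library at a time gave −0.75 to 5.74 for Saa3, −0.66 to 2.05 for Ccl2, −1.41 to 0.28 for Foxj1, −0.11 to 1.16 for Tnf, −1.64 to 0.20 for Cxcl1 and −0.59 to 0.35 for Nos2. Without LPS replicate 1 and control replicate 1 the values were −1.05 for Saa3, −1.03 for Ccl2, 0.29 for Cxcl1 and 0.45 for Nos2, and with limma-voom weights they were −0.90 for Ccl2, 0.057 for Cxcl1 and 0.29 for Nos2. Over 44 list medians and their alternatives, 50 of 836 values moved by more than the SD of the list's mean between replicates (the larger of the 2 groups), in 21 lists. The cause was not tested. The biological coefficient of variation was 0.352 with LPS replicate 1 and 0.292 without it.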
